A study of Bos taurus with 90 samples.

Results

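ENSBTAG00000039261 and ENSBTAG00000039719 are 2 of the 27270 bovine genes in a count table of follicular cells. They were picked by their levels in mural granulosa cells (MGCs) of follicles that the study classed as healthy. Their falls from medium to large follicles were the largest among genes that met a rule on level, overlap and test given below. They are given by Ensembl identifier only, since the table does not pair identifiers with symbols and none of its identifiers could be matched to a symbol, a function or a sequence in the reference used here. Both genes passed the filter on low values, which asked for a level in any one cell type. The values came from 80 RNA-seq libraries of 27 antral follicles, with the MGCs, the cumulus cells (CCs) and the oocyte of each follicle sequenced separately.

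The follicles were dissected from cow ovaries obtained at a slaughterhouse, with no treatment in any group, and the source animal of each follicle was not stated. They fell into 9 small follicles (3.1 to 3.8 mm in diameter), 8 medium follicles (6.2 to 7 mm) and 10 large follicles (9.6 to 11.6 mm), called S, M and L with a number below. The study had classed 10 of them as healthy from marker expression in the same MGC libraries, 3 small (S4, S5 and S6), 3 medium (M5, M6 and M8) and 4 large (L5, L8, L9 and L10). The study described follicles outside this set as unhealthy by their transcripts and as entering early atresia (degeneration of the follicle). It left them out of its main developmental analyses. These other 17, which were not among the follicles it removed for quality, are called the other retained follicles. The 3 follicles that the study removed were left out here, and so was the CC library of S7, which held counts for few genes. Each MGC sample was sequenced in bulk, whereas CC pools and single oocytes were amplified by SMART-seq2 (a full-length method for small inputs), so that cell type and library protocol cannot be told apart.

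Granulosa cells surround the oocyte from the start of follicle growth, and the fluid-filled cavity of an antral follicle separates them into a mural layer along the follicle wall and a cumulus around the oocyte. The mural cells carry much of the follicle's estrogen synthesis and respond to gonadotropins, while the cumulus cells stay coupled to the oocyte through gap junctions, supply it with metabolites and respond to factors that it secretes. Both layers descend from the same granulosa cells, and they differ in many transcripts once the cavity has formed.

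The MGC libraries held 26739954 to 39266980 counts, the CC libraries 8760201 to 40180192 and the oocyte libraries 8442938 to 53173320. Over 15129 genes without the members, all 27 MGC, 26 CC and 27 oocyte libraries correlated best with the mean profile of their own cell type in the other follicles. The CC library of S1 stood furthest from its own type, with r = 0.809 against 0.875 for the next CC library. Among MGCs, L6 stood furthest from its type, with r = 0.904. Values without S1 or without L6 are given beside the MGC stage comparisons and the differences within follicles.

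In the MGCs of the healthy follicles, where both genes had been chosen, ENSBTAG00000039261 was high in small and medium follicles and low in large ones. In CPM, the count scaled to the total of its library, its level was 173.6 in S4, 86.8 in S5 and 126 in S6. It was 54.7 in M5, 129.7 in M6 and 132 in M8. In large follicles, it was 10.2 in L5, 0.972 in L8, 0.583 in L9 and 7.71 in L10. As the choice required of both genes, no large follicle reached the lowest medium follicle. The levels of small and medium follicles overlapped.

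ENSBTAG00000039719 had the same order of stages between medium and large follicles, with 1 medium follicle far above the rest. Its level in the healthy MGCs was 79.6 CPM in S4, 66.8 in S5 and 95.2 in S6. It was 67.4 CPM in M5, 459 in M6 and 141 in M8. It was 26.6 CPM in L5, 13.9 in L8, 8.43 in L9 and 12.8 in L10. Unlike ENSBTAG00000039261, which was near 0 in some large follicles, this gene had 8.43 CPM or more in each of them.

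The log2 fold change from medium to large healthy follicles in edgeR was -4.37 for ENSBTAG00000039261 (SE 0.83, n = 3 and 4) and -3.83 for ENSBTAG00000039719 (SE 0.56). The genes were selected on these values, which are given as a description with no test. Their SE come from the test statistic that the choice used, so they are no separate support. The choice took genes that passed the test there, did not overlap between the stages and had a mean log2(CPM + 1) of at least 3 over these 7 libraries. By this rule, 477 genes qualified, and the members had the largest falls among them. ENSBTAG00000039719 was just inside the choice, and the next falls outside it were -3.50 and -3.49. In that comparison, 4.67% of 14722 genes fell by more than 2-fold with an adjusted p under 0.05, and by size alone, with no minimum level, test or rule on overlap, the members were in places 40 and 65 of all genes tested. Without M6, the fall of ENSBTAG00000039719 was -2.76. The healthy small follicles shared 1 identifier prefix, and no prefix was shared between the healthy medium and large follicles, so that what the prefix stands for and the stage cannot be told apart in this contrast.

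**Figure D1:**
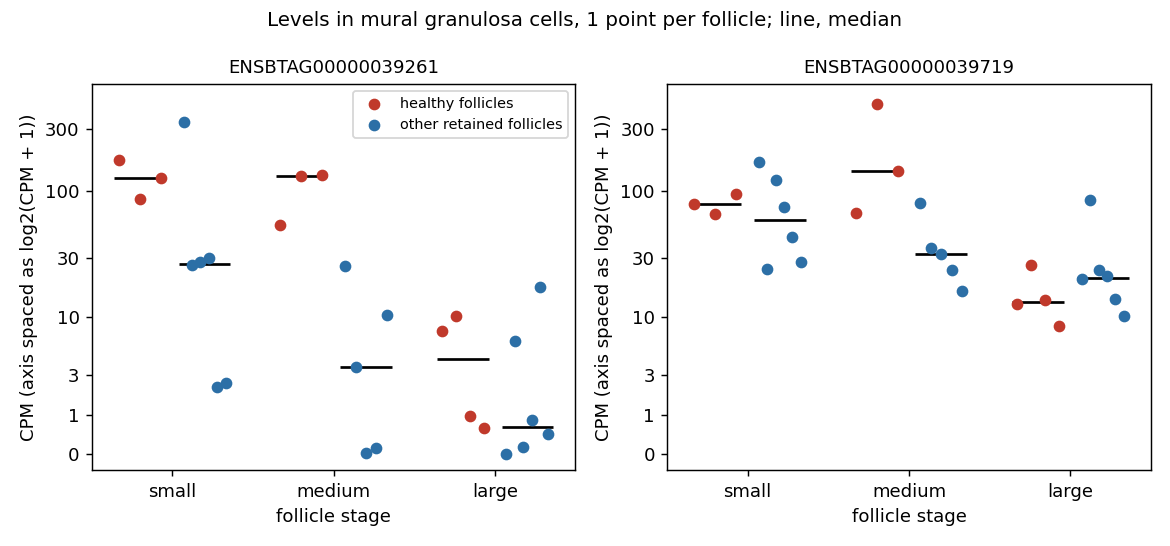
Level of each gene in mural granulosa cells (CPM on an axis spaced as log2(CPM + 1)) by follicle stage, with 1 point for each of 10 healthy follicles (red) and 17 other retained follicles (blue) and a line at each group's median. The healthy medium follicles lie above the healthy large follicles for both genes, as the choice required. For ENSBTAG00000039261 they also lie above all 5 other medium follicles, and the share of all genes with that separation was not counted.

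The other retained follicles had no part in the choice, and they tested whether the fall from medium to large follicles was also present outside the healthy set. It was not detected. This was no repeat of the contrast in healthy follicles, as the study held the other retained ones to be unhealthy. In their MGCs, ENSBTAG00000039261 was at 26.3 CPM in M1, 3.60 in M2, 0.0297 in M3, 0.125 in M4 and 10.5 in M7. In the 6 large follicles, the lowest level was 0 in L1, the median was 0.629 and the highest was 17.8 CPM in L6. The medium and large follicles overlapped over most of their ranges. A count of 0 among the 31335093 counts of L1 allowed a level of up to 0.0957 CPM, which covers counting error only.

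The edgeR quasi-likelihood test gave a log2 fold change from medium to large of -0.85 for ENSBTAG00000039261 (SE 1.51, n = 5 and 6, adjusted p = 1). The exact two-sided permutation test of the mean log2(CPM + 1) gave p = 0.545, or 0.65 adjusted over the 9 comparisons made for each gene. In this comparison, 0% of 14873 genes passed a fold change above 2 with an adjusted p under 0.05, by edgeR and by DESeq2 alike, and 504 had an unadjusted edgeR p under 0.05. The estimate was -2.44 without L6 and 0.36 without M1, so its sign rested on 1 follicle. The fall of -4.37 in the healthy follicles was not tested against this value, because it had been used for the choice.

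ENSBTAG00000039719 also overlapped between medium and large follicles outside the healthy set. It was at 81.2 CPM in M1, 36.1 in M2, 32.5 in M3, 24.5 in M4 and 16.5 in M7. Its lowest level in the 6 large follicles was 10.3 CPM in L7, the median was 21.1 and the highest was 85.9 in L2. The log2 fold change was -0.36 (edgeR, SE 0.58, adjusted p = 1), and the exact permutation p was 0.368 (0.662 adjusted over 9 comparisons). Without L2, the log2 fold change was -1.12, and without M1 it was 0.15. Without L6, it was -0.24, with an exact permutation p of 0.516.

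From small to large follicles outside the healthy set, both genes had lower levels in large follicles, and neither difference passed the test. In the 6 small follicles, ENSBTAG00000039261 ranged from 2.26 CPM in S8 to 338 in S1 with a median of 27.2. Its log2 fold change was -3.74 (edgeR, SE 1.59, unadjusted p = 0.031, adjusted p = 0.276), and the exact permutation p was 0.0368, or 0.166 adjusted over 9 comparisons. ENSBTAG00000039719 ranged from 24.7 CPM in S2 to 167 in S1, with a median of 59.4. Its log2 fold change was -1.25 (edgeR, SE 0.56, adjusted p = 0.301), with an exact permutation p of 0.0519. In this comparison, 0.545% of 14873 genes were called, 18 higher and 63 lower in large follicles.

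S1 held the highest MGC level of ENSBTAG00000039261 in all 27 follicles, including the healthy ones. Without S1, the log2 fold changes from small to large were -2.01 and -0.96 for ENSBTAG00000039261 and ENSBTAG00000039719, with exact permutation p of 0.0736 and 0.104. Without L6, they were -5.37 (adjusted p = 0.128 in edgeR) and -1.16, with exact permutation p of 0.0173 and 0.0909. With the identifier prefix as covariate, they were -3.30 and -0.49 (edgeR, adjusted p = 0.409 and 0.873). From small to medium follicles, the log2 fold change was -2.89 for ENSBTAG00000039261 (edgeR, SE 1.65, adjusted p = 0.467) and -0.89 for ENSBTAG00000039719 (SE 0.59, adjusted p = 0.536), where 0.0336% of the genes were called. The exact permutation p was 0.143 and 0.186. Without S1, the log2 fold changes became -1.17 and -0.59, with exact permutation p of 0.262 and 0.341. With the prefix as covariate, they were -1.53 and -0.54.

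The healthy and the other retained follicles did not overlap for ENSBTAG00000039261 at the medium stage. The highest of the 5 other medium MGC libraries, at 26.3 CPM, lay below the lowest healthy one, at 54.7 CPM. At the small stage 5 of 6 others lay below the lowest healthy library, with S1 above the highest. At the large stage both sets overlapped, with 3 of 6 below the lowest healthy library. ENSBTAG00000039719 overlapped at each stage, and 4 of 5 other medium libraries lay below the lowest healthy one. The healthy medium levels were among the values that chose the genes, so no test is given. The share of all genes that separate the follicle classes in this way was not counted. The separation is therefore not shown to be particular to ENSBTAG00000039261.

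Some follicle identifiers share their leading digits, which the labels do not explain, and the stages were therefore compared within these prefixes. M7 and L1 shared a prefix, and ENSBTAG00000039261 was at 10.5 CPM in M7 and at 0 in L1. In M2 and L3, which shared another, it was at 3.60 and 0.145 CPM. In M3 and L2, which shared another again, it was at 0.0297 and 6.24 CPM. The direction thus differed among the prefixes that held other retained follicles of both stages. For ENSBTAG00000039719 the same pairs were 16.5 and 20.5 CPM, 36.1 and 24.4 CPM, and 32.5 and 85.9 CPM.

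Although they had been picked in mural cells, both genes had their highest levels in CCs. ENSBTAG00000039261 had a median of 2307 CPM in 26 CC libraries, 10.2 in 27 MGC libraries and 2.43 in 27 oocytes. ENSBTAG00000039719 had a median of 151 CPM in CCs and 32.5 in MGCs, and it was at 0 in 16 of 27 oocytes. In the CC library of L10, ENSBTAG00000039261 reached 6246 CPM, or 0.625% of all counts. The name of mural genes therefore describes where they were picked and not where their levels were highest.

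**Figure D2:**
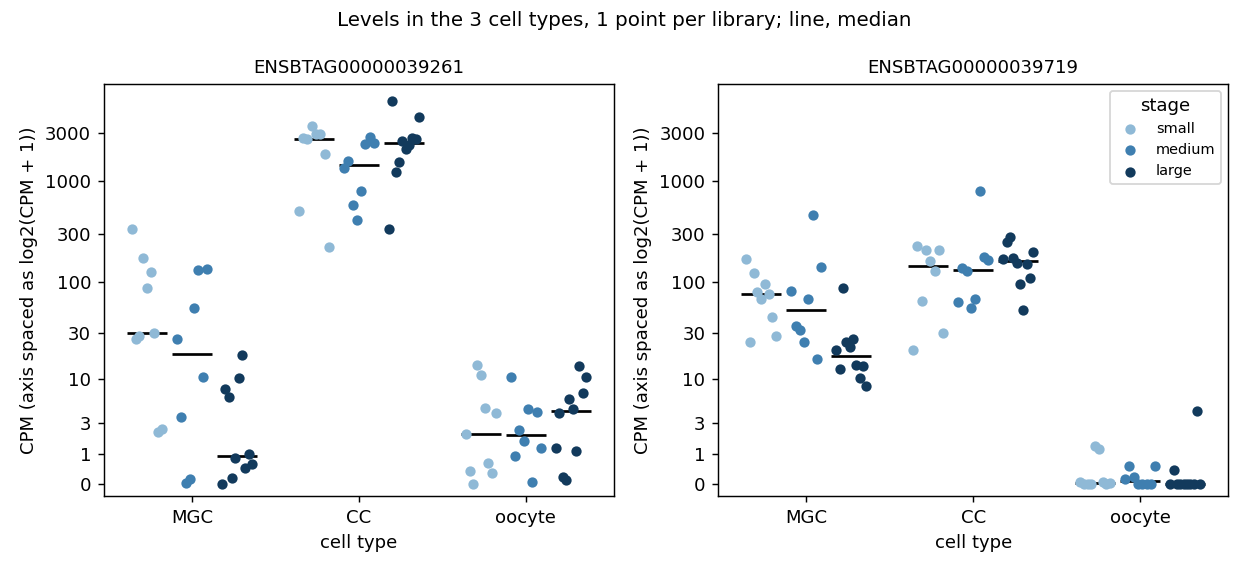
Level of each gene (CPM on an axis spaced as log2(CPM + 1)) in MGCs, CCs and oocytes, with 1 point per library, the stages from light (small) to dark (large) and a line at each stage's median. ENSBTAG00000039261 lies above 223 CPM in each CC library, and ENSBTAG00000039719 is at or near 0 in most oocytes.

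Among the follicles outside the healthy set with a library of each cell type (16 follicles), the mean log2(CPM + 1) of ENSBTAG00000039261 was 10.23 in CCs and 2.56 in MGCs. In edgeR, with stage as a covariate, the log2 fold change of CCs over MGCs was 6.81 (SE 1.01, adjusted p = 1.12e-07), where 51.6% of 15131 genes were called. CCs were higher in 16 of 16 follicles, and the exact sign permutation within follicles gave p = 3.05e-05, the smallest that it can give (0.000275 adjusted over 9 comparisons). For ENSBTAG00000039719, the log2 fold change was 1.80 (edgeR, SE 0.41, adjusted p = 0.000206). CCs were higher in 13 of 16 follicles, with an exact permutation p of 0.00522 (0.0235 adjusted). Without S1, whose CC library stood apart, the log2 fold changes were 7.78 and 2.02.

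Oocytes held little of either transcript. For ENSBTAG00000039719, the edgeR log2 fold change of oocytes over MGCs was -9.87 (SE 0.61, adjusted p = 1.02e-19), and oocytes were higher in 0 of 16 follicles. This fitted value depends on the prior count, as the gene had no count in most oocytes. For ENSBTAG00000039261, the edgeR log2 fold change was -2.68 (SE 0.90, adjusted p = 0.00624), but with the follicle as a replicate block it was -1.57 and did not pass (adjusted p = 0.119). Its level was higher in the oocyte in 6 of 16 follicles, and the exact permutation p was 0.149. In this comparison 74.2% of the genes were called, so a call for a given gene sets it apart from few others.

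In CCs, neither gene changed with stage by the test used. For ENSBTAG00000039261, the lowest, median and highest levels were 223, 2628 and 3533 CPM in 8 small follicles. They were 413, 1456 and 2761 CPM in 8 medium follicles, and 337, 2368 and 6246 CPM in 10 large follicles. The 3 ranges overlapped, with L9 at 4357 CPM and L10 at 6246 CPM above each small and medium CC library. From small to medium follicles, the log2 fold change was -0.52 (edgeR, SE 0.47, adjusted p = 0.731), and from medium to large it was 0.84 (SE 0.45, adjusted p = 0.693). The exact permutation p was 0.578 and 0.184.

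ENSBTAG00000039719 in CCs had lowest, median and highest levels of 20.4, 143 and 228 CPM in small, 54.9, 132 and 789 in medium, and 52.5, 160.4 and 280.4 in large follicles. The log2 fold change was 0.61 from small to medium (edgeR, SE 0.44, adjusted p = 0.619) and -0.29 from medium to large (SE 0.42, adjusted p = 0.914). Without M6, they were -0.24 and 0.57. In both CC comparisons 0% of 15106 genes were called by edgeR, while 1810 genes in the earlier comparison and 1164 in the later one had an unadjusted p under 0.05, and DESeq2 called 38 and 18. In the healthy follicles alone, where MGCs had the fall, the CC level of ENSBTAG00000039261 was 798 to 2369 CPM in medium and 2093 to 6246 CPM in large follicles, with no test.

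In oocytes, ENSBTAG00000039261 had medians of 2.16, 2.04 and 4.31 CPM in small, medium and large follicles, and a highest level of 14.2 CPM. Its log2 fold changes were -0.46 from small to medium (edgeR, SE 0.93, adjusted p = 0.895) and 0.63 from medium to large (SE 0.92, adjusted p = 1). ENSBTAG00000039719 had 4.24 CPM in the oocyte of L8 and at most 1.36 CPM in the other oocytes. It exceeded 1 CPM in 3 of 27 oocytes and entered the oocyte fit only through its levels in MGCs and CCs, so its log2 fold changes there say little about a change. They were -0.88 and 1.51 (edgeR, SE 1.65 and 1.65, adjusted p = 0.883 and 1). In these comparisons, 0.0737% and 0% of 14934 genes were called, with 784 at an unadjusted p under 0.05 and 0 DESeq2 calls in the latter.

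**Figure D3:**
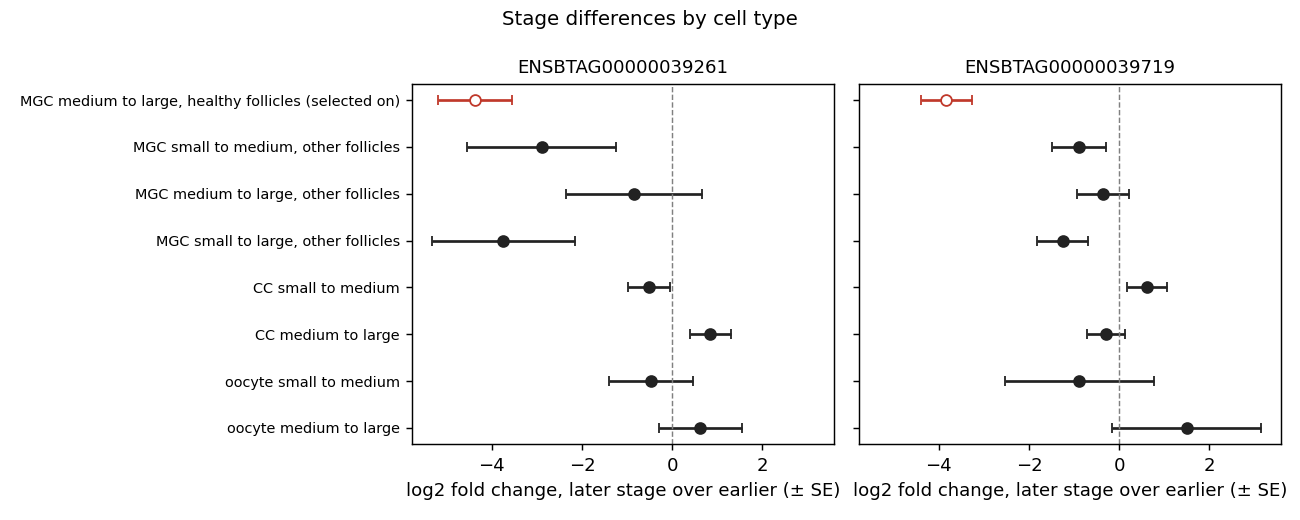
Log2 fold change of each gene between stages from edgeR, later stage over earlier, with bars of 1 SE. Open red points are the contrast that chose the genes, with -4.37 and -3.83. The black points, from libraries that the choice did not use or from other cell types, have adjusted p of 0.276 or more.

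The CC and MGC libraries were also compared within follicles, and the stages are given for the other retained follicles, since the healthy medium and large MGC values were used for the choice. For ENSBTAG00000039261, the median CC minus MGC difference in log2(CPM + 1) was 6.49 in small follicles, 8.42 in medium ones and 9.40 in large ones, with overlapping ranges. CCs were higher in 26 of 26 retained follicles. The MGC level was a median of 1.07% of the CC level in the small follicles outside the healthy set, 0.228% in the medium and 0.0247% in the large ones. In S1 it was 67.1% of it, the highest of all. For ENSBTAG00000039719, the median difference was 0.12, 1.89 and 2.77 in the same follicles, and CCs were higher in 22 of 26 retained follicles, among them all 10 large ones. Without S1, the small follicles had medians of 6.54 and 1.15. In S1, its CC level of 20.4 CPM lay below its MGC level of 167 CPM.

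The growth of this difference was tested in the follicles outside the healthy set. From medium to large follicles, it was 1.15 on the log2 scale for ENSBTAG00000039261 (exact permutation test, p = 0.247) and 1.04 for ENSBTAG00000039719 (p = 0.152). From small to medium, it was 2.16 (p = 0.183, exact) and 1.27 (p = 0.349), or 0.86 and 0.45 without S1. Without L6, the changes from medium to large were 1.58 (exact p = 0.111) and 1.204 (p = 0.119). None of the 4 tests passed before adjustment. In the healthy follicles, the difference for ENSBTAG00000039261 was 3.84 to 4.17 in medium and 7.54 to 11.43 in large follicles, and it contains the MGC values that chose the gene.

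**Figure D4:**
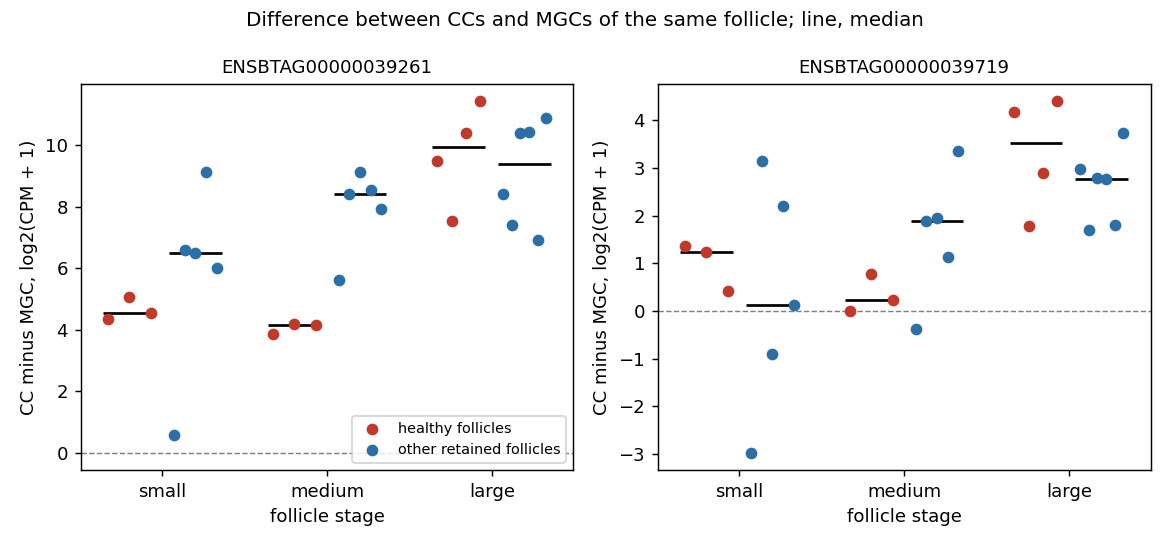
CC minus MGC level of the same follicle in log2(CPM + 1) by stage, with 1 point per follicle for the healthy (red) and the other retained (blue) follicles and a line at each median. The dashed line marks equal levels. All 26 points of ENSBTAG00000039261 lie above it, and the lowest point in both panels is S1.

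By median level, the 9 groups of cell type and stage for ENSBTAG00000039261 ran from CCs of small, large and medium follicles down to MGCs of small and medium follicles, then the oocyte groups, with MGCs of large follicles last at 0.896 CPM. In this order only medium CCs and small MGCs, next to each other, had ranges that did not overlap (lowest 413 CPM and highest 338 CPM). For ENSBTAG00000039719, the 3 CC groups came first, MGCs followed from small (74.7 CPM) to medium (51.7 CPM) and large (17.4 CPM), and the oocytes came last. The order of medium and large MGCs includes the values that chose the genes, and for ENSBTAG00000039719 the medians outside the healthy set were 32.5 and 21.1 CPM, with overlapping ranges. The only neighbours without overlap were large MGCs, with a lowest level of 8.43 CPM, and medium oocytes, with a highest level of 0.509 CPM.

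The members varied together in MGCs. Over 27 MGC libraries, their log2(CPM + 1) had Pearson r = 0.75 and Spearman rho = 0.71, which is a description over libraries that share stages and follicle class. Since both genes were chosen for a fall across 7 of these libraries, part of this relation is set by the choice. Without the medium and large healthy follicles, r was 0.71 (n = 20), and over the 17 other retained follicles it was 0.65. Within stages, over all retained follicles, r was 0.71 over the 9 small follicles, 0.78 over the 8 medium ones and 0.25 over the 10 large ones. This was not the closest relation of either, since ENSBTAG00000039719 was in place 294 of 14906 genes by its r with ENSBTAG00000039261, and ENSBTAG00000039261 in place 142 by its r with ENSBTAG00000039719. In 26 CC libraries r was 0.55, and in 27 oocytes it was 0.29. Between the MGC and the CC library of a follicle, the level of ENSBTAG00000039261 had r = 0.24 and that of ENSBTAG00000039719 had r = 0.07 (n = 26).

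The MGC levels of both genes also moved with those of other genes that are higher in CCs. A list of the 100 genes with the largest median CC minus MGC difference in the 16 follicles, without the members, was made after the values were seen. Its summed level in MGCs was 27875 to 38693 CPM in healthy medium and 7831 to 27113 CPM in healthy large follicles. It was 2956 to 18523 CPM in other medium and 2714 to 17484 CPM in other large follicles, and 1 to 12 of the 100 genes were at 0 in an MGC library. All 3 healthy medium libraries had a larger sum than any other MGC library. Over 27 MGC libraries, r with the log of this sum was 0.82 for ENSBTAG00000039261 and 0.53 for ENSBTAG00000039719, and over the 17 libraries of the other retained follicles it was 0.83 and 0.55.

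From medium to large healthy follicles, 90 of these 100 genes had a lower mean level and their median change was -1.13, against 47.0% of all genes and a median of 0. In the other retained follicles, 36 of 100 were lower, with a median change of 0.06, against 47.6% of all genes. A like list of 100 genes that were higher in oocytes summed to 501 to 796 CPM in MGCs of healthy medium and 74.2 to 232 CPM of healthy large follicles, and to 58.5 to 601 CPM and 66.5 to 473 CPM in the other medium and large ones. Of these genes, 46 of 100 were lower and 27 higher in healthy large than in healthy medium follicles. Their median change was 0, and 47.0% of all genes were lower. In an MGC library, 43 to 61 of the 100 were at 0, so these shares do not compare like with like. The r with this sum was 0.83 and 0.77 over 27 libraries, and 0.77 and 0.75 over the other retained follicles. The part of CC or oocyte RNA in the MGC levels of the members was not tested. In bulk samples, fewer cells of a type and less RNA per cell cannot be told apart.

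**Figure D5:**
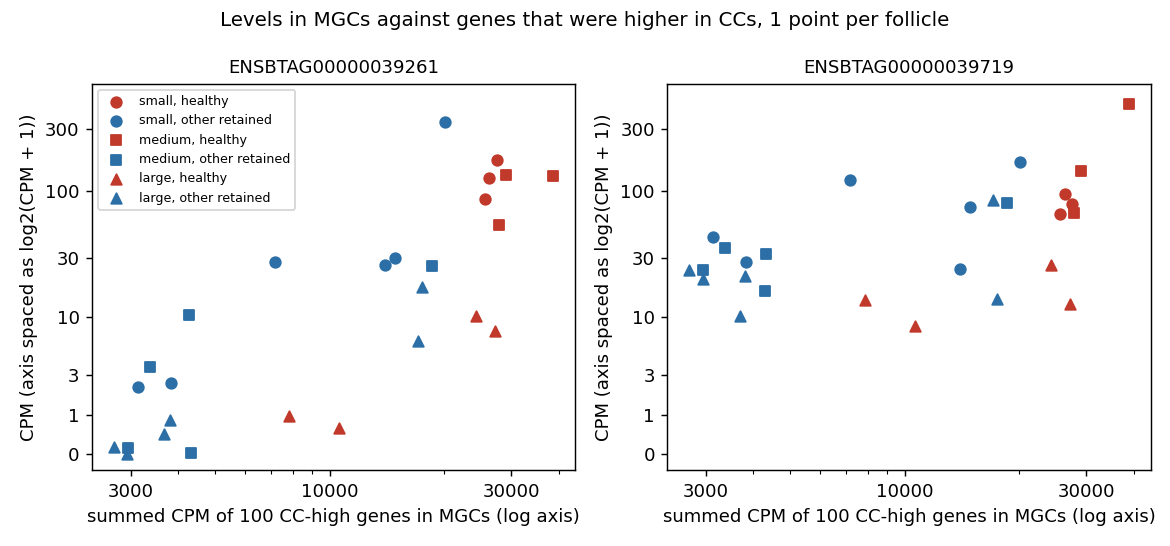
MGC level of each gene (CPM on an axis spaced as log2(CPM + 1)) against the summed CPM in the same library of 100 genes that were higher in CCs (log axis), with 1 point per follicle, symbols by stage and colours by follicle class. The healthy medium follicles (red squares) lie furthest to the right. M6 and M8 lie high for both genes, and M5 lies lower, at 54.7 CPM of ENSBTAG00000039261 and 67.4 CPM of ENSBTAG00000039719. L5 and L10 (red triangles), with sums of 24246 and 27113 CPM, lie lower for ENSBTAG00000039261, at 10.2 and 7.71 CPM.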

How the data were processed

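The submitters' processing notes name HISAT2 2.2.1, featureCounts of Subread and the build ARS-UCD1.2, whereas the study's methods name STAR, with uniquely mapping reads counted over exons. Which aligner made the table was not settled, and no strand setting was stated, so overlapping genes on opposite strands cannot be told apart. The deposited values are read counts per gene without normalization, which the authors did not pool over libraries. All count columns belong to samples of the series. The members and the gene lists were chosen with earlier results of these data known.

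CPM was computed from column totals in Python 3.11.15. A gene entered the tests if its CPM exceeded 1 in 15 or more retained libraries of a cell type, and it was fitted in edgeR 4.0.16 (R 4.3.3) with TMM and glmQLFTest, in 1 fit per cell type over the stages, or over the 3 cell types with stage as covariate. Benjamini-Hochberg adjustment ran over all genes tested, and a call needed a fold change above 2 and an adjusted p under 0.05. Each SE given for edgeR is the absolute log2 fold change divided by the square root of the F statistic. Exact two-sided permutation tests used log2(CPM + 1). All arrangements were enumerated. On simulated counts with 200 genes changed 4-fold, edgeR recovered 164 from medium to large in the 14847 MGC genes tested there and called 7 others. The changed genes were drawn at random from genes above a minimum level, with independent counts around a common mean per gene. This recovery is not the chance of finding such a change in a member, as ENSBTAG00000039261 had an SE of 1.51 in that comparison. The named genes were the 2 members. Lists of marker genes by symbol had been planned and were not run, as identifiers could not be matched. Counts are not of single molecules, so limits cover counting error only, and p-values measure the spread between follicles, which may share animals. MGCs, CCs and oocytes of a follicle are paired by their source, and the fit with the follicle as a block was an alternative. Other alternatives were DESeq2 1.42.0, its size factors in edgeR, filterByExpr, no filter, the removed follicles put back, only follicles outside the healthy set, the identifier prefix as a covariate, each follicle left out in turn, TMM-scaled CPM and a pseudocount of 0.1.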

Additional observations from a re-analysis of the deposited data

Results flagged for a closer look

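Each member's levels were searched for a library set apart from its group, in the 9 groups of cell type and stage per gene, 18 in all. A library was taken as set apart when its gap to the nearest other library, as a share of the group's range in log2(CPM + 1), was above Dixon's limit for that group size. Of the 18 groups, 3 met this, all for ENSBTAG00000039719 at the highest library. For normally distributed values, chance gives about 1 in 20 groups. In CCs of medium follicles, M6 was at 789 CPM against 177 in the next of 8 libraries. The MGC library of M6, at 459 CPM, was also the highest of all MGC libraries for this gene. In MGCs of large follicles, L2 was at 85.9 CPM against 26.6 in the next of 10 libraries, and its CC library, at 280.4 CPM, was the highest of the large CC libraries. In oocytes of large follicles, L8 was at 4.24 CPM against 0.367 in the next of 10 libraries. As 8 of these 10 were at 0, the rate of 1 in 20 does not hold for that group. The change of the CC minus MGC difference between stages, tested in the follicles outside the healthy set, met no threshold.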

How the results depend on the processing

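The members' direction and call were kept under each alternative for CCs against MGCs and, for ENSBTAG00000039719, for oocytes against MGCs. For ENSBTAG00000039261 in oocytes against MGCs, the call was lost with the follicle as replicate block (-1.57), and the replicate block changed no other call of the members. No stage comparison of a member passed under any alternative, outside the contrast that chose them. The signs of several stage differences with large errors turned. For ENSBTAG00000039719 with the identifier prefix as covariate, the log2 fold change was 0.055 in MGCs from medium to large follicles, -0.29 in CCs from small to medium and 0.26 in CCs from medium to large. With only follicles outside the healthy set, it was -0.10 and 0.51 in CCs and 2.68 and -5.33 in oocytes, and it was -2.06 by DESeq2 in oocytes from medium to large. For ENSBTAG00000039261 in oocytes from small to medium, it was 0.38 with the removed follicles put back, 1.44 with only follicles outside the healthy set and 0.54 with the prefix. From medium to large, it was -0.21 and -0.10 in the former 2 settings. With a pseudocount of 0.1, the mean differences in oocytes turned to 0.24 for ENSBTAG00000039261 from small to medium and -0.21 for ENSBTAG00000039719 from medium to large. On that scale and on TMM-scaled CPM, the difference of ENSBTAG00000039719 in MGCs from small to large was -1.40 and -1.34, with an exact permutation p of 0.0476 in both against 0.0519 in the report (adjusted 0.143). The cause of these changes was not tested.

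Counts of genes called moved more. DESeq2 called 262 genes in MGCs from small to medium outside the healthy set against 5 by edgeR, 495 against 81 from small to large, 38 and 18 against 0 in CCs, 37 against 11 in oocytes from small to medium, and 1847 against 1178 in healthy MGCs from medium to large. In MGCs from small to medium, edgeR called 3 with no filter, 2 with the removed follicles put back and 0 with the prefix. In CCs from medium to large it called 2 with no filter. In oocytes from small to medium it called 0 with no filter, with the removed follicles, outside the healthy set or with the prefix.

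When each follicle was left out in turn, the log2 fold changes of ENSBTAG00000039261 ranged from -2.44 to 0.36 in MGCs from medium to large, -4.12 to -1.17 from small to medium, -5.37 to -2.01 from small to large, -0.68 to -0.39 and 0.58 to 1.01 in CCs, and -1.05 to 0.0015 and 0.31 to 1.21 in oocytes. Those of ENSBTAG00000039719 ranged from -1.12 to 0.15, -1.42 to -0.59 and -2.02 to -0.96 in MGCs, -0.24 to 0.75 and -0.42 to 0.57 in CCs, and -1.40 to -0.01 and -1.98 to 2.02 in oocytes. Against MGCs they ranged from 6.60 to 7.78 and 1.63 to 2.02 in CCs, and from -3.16 to -1.66 and -10.73 to -9.51 in oocytes. In the healthy follicles, they were -4.91 to -4.00 and -4.23 to -2.76. Counts of calls ranged from 0 to 18, 9 to 152 and 0 to 122 in MGCs from small to medium and small to large and in oocytes from small to medium, 0 to 1 in CCs from small to medium, and 376 to 2374 in healthy MGCs. The prefix could not be fitted in the healthy follicles, as their stages share no prefix. Oocyte levels of ENSBTAG00000039719 were near the limit of detection, with a limit of 0.0564 to 0.355 CPM for a count of 0.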

Other observations

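Both members were highest in CCs while having been picked for a fall in MGCs. The MGC libraries of the healthy medium follicles were among those with the highest correlation with the mean CC profile. M6 had r = 0.894 with CCs and 0.943 with MGCs, M8 had 0.883 and 0.957, and M5 had 0.868 and 0.967. The MGC library of L10, with 7.71 CPM of ENSBTAG00000039261, had r = 0.871 with CCs and 0.957 with MGCs. The MGC library of L6, with 17.8 CPM of ENSBTAG00000039261, had r = 0.867 with CCs and 0.904 with MGCs. S1, whose MGC library held the highest MGC level of ENSBTAG00000039261 (338 CPM), had r = 0.831 with CCs and 0.945 with MGCs. These are values over 15129 genes without the members, and their part in the members' levels was not tested.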
